A study of Mus musculus with 2 samples.

Results

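The 51 genes described here write, erase and read DNA methylation or modify and move nucleosomes, and the data are their transcript levels in left cerebral cortex tissue of B6CASTF1/J males. They were taken by symbol from a list that covers 11 families: DNA methyltransferases, TET dioxygenases, MBD proteins, class I, class IIa and class IIb and IV histone deacetylases (HDACs), CHD remodelers, subunits of the BAF and PBAF complexes, the core of Polycomb repressive complex PRC2, the KMT2 family and the H3K9 methyltransferases. All 51 were found among 55536 gene rows, of which 22015 are nuclear protein-coding genes. B6CASTF1/J is the first-generation hybrid of C57BL/6J and CAST/EiJ, so its cells carry 1 copy of each autosome from each strain. Hdac6 and Hdac8 lie on chromosome X, of which males carry a single copy. The males were 2 months old, the labels name no treatment, and each of 2 tissue samples gave 1 library of total RNA from 300 ng, numbered replicate 2 and replicate 1 in 1 group. The labels number the tissue samples as coming from separate males but give them a shared donor record. They are taken here as 2 animals, and if they are not, the spread and the ratios between them are technical. No contrast between conditions exists, and the 2 libraries are compared with each other only.

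Methyl groups on the cytosine of CG dinucleotides are placed on unmodified DNA by Dnmt3a and Dnmt3b and copied after replication by Dnmt1, and Tet1, Tet2 and Tet3 oxidise them. Mature neurons are unusual in that Dnmt3a also methylates cytosines outside CG, and proteins of the MBD family bind or resemble binders of methylated DNA. Around these marks, HDACs remove acetyl groups from histones, and PRC2 and the Ehmt enzymes place repressive methyl groups on histone H3. KMT2 enzymes other than Kmt2e place methyl groups on lysine 4 of histone H3, and CHD and BAF enzymes use ATP to move nucleosomes.

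The libraries held 32032064 expected counts over genes in replicate 2 and 32866353 in replicate 1. Expected counts are estimates of the number of reads per gene that need not be whole. Levels below are deposited TPM (transcripts scaled to a total of 1000000, per length, so genes can be compared), with the mean ± SD over the 2 animals (n = 2). Every sample was also quantified a second time by the authors directly from reads, called the other quantification. For the labelled tissue, all 5 markers of excitatory neurons reached at least 27.8 TPM in each library, with a summed level of 2686 TPM in replicate 2 and 2599 TPM in replicate 1. Markers of neighbouring tissue differed between the libraries. The 7 striatal markers summed to 144 TPM in replicate 2 and 264 TPM in replicate 1. The 3 choroid plexus markers summed to 92.1 TPM in replicate 2 and 10.4 TPM in replicate 1, and the 5 markers of mature oligodendrocytes to 586 TPM in replicate 2 and 723 TPM in replicate 1. In bulk tissue, fewer cells of a type and less RNA per cell cannot be told apart.

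Chromatin regulators were broadly present. Of the 51 members, 50 stood at 1 TPM or more in both libraries, and the background is 58.7% of nuclear protein-coding genes and 27.0% of all gene rows. The exception was Dnmt3b. The median member stood at 30.8 TPM, against 15.9 TPM for the nuclear protein-coding genes that reached 1 TPM. The members summed to 2107 TPM in replicate 2 and 2054 TPM in replicate 1. The 4 genes above 100 TPM were Chd3, Smarca2, Hdac5 and Smarcc2, while 40 lay between 10 and 100 TPM, and 7 were below 10 TPM (Mbd4, Chd7, Ezh2, Tet1, Hdac8, Hdac10 and Dnmt3b). Ranked from highest to lowest, 26 of the 50 neighbouring pairs had overlapping ranges between the animals, so the order within the crowded middle is not resolved. The other quantification kept the order of 33 of these pairs and put every member higher. The main level was 0.632 times the other for the median member, between 0.410 times for Ezh2 and 0.903 times for Hdac5, and 0.638 times for the median detected nuclear protein-coding gene. Across the 51 members Spearman's rho between both quantifications, which share the libraries, was 0.981.

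**Figure D1:**
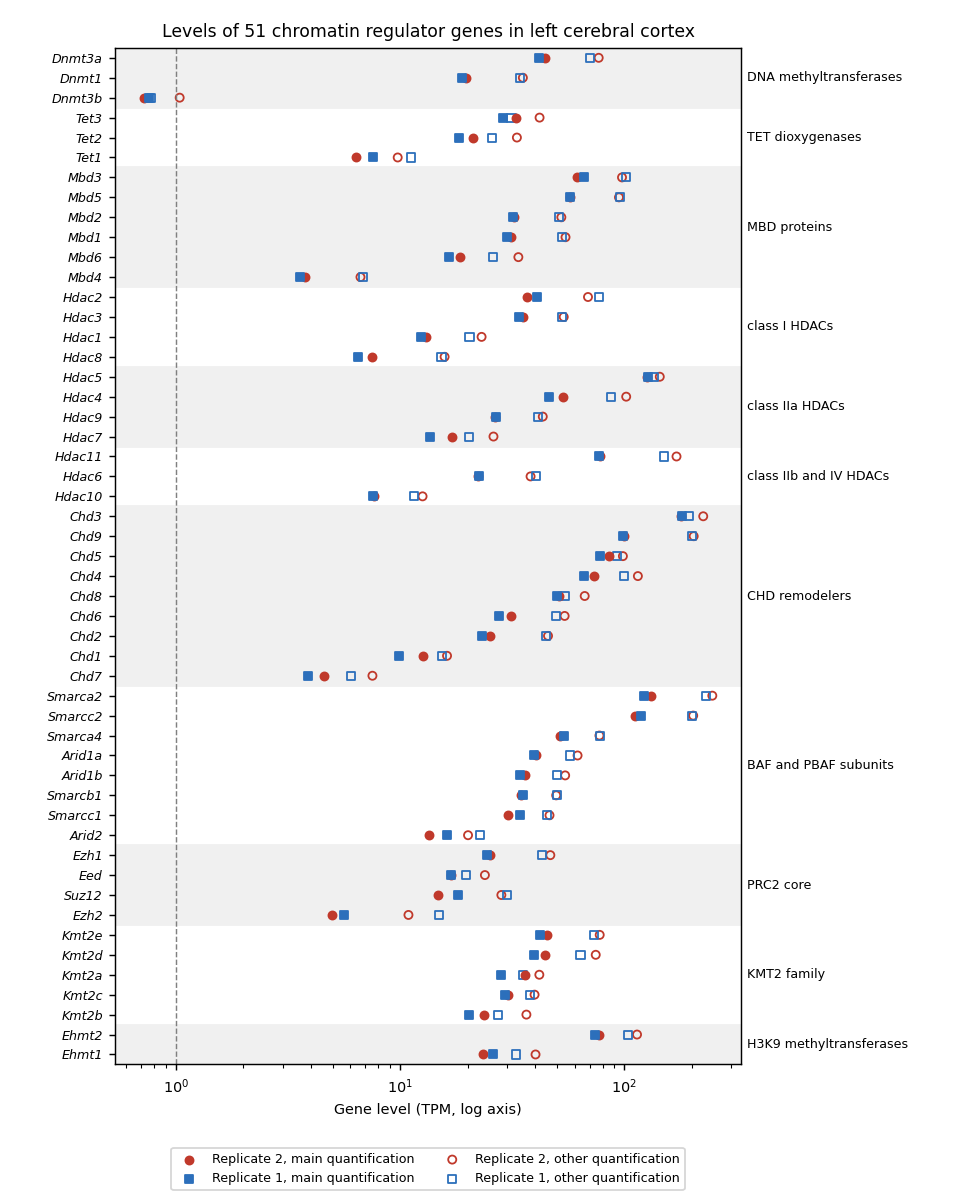
Level of each of the 51 members in TPM on a log axis, grouped by family and ordered within it by mean level. Filled symbols are the main and open symbols the other quantification, for replicate 2 (circles) and replicate 1 (squares). The dashed line marks 1 TPM, and Dnmt3b is the only member left of it in the main quantification.

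Among the enzymes that write DNA methylation, Dnmt3a was the most abundant. Dnmt3a (chr12:3806007-3914443) was at 44.1 TPM in replicate 2 and 41.8 TPM in replicate 1, with 76.9 TPM in replicate 2 and 70.3 TPM in replicate 1 in the other quantification. All coordinates are those of build mm10. Dnmt1 (chr9:20907209-20959888), the copying enzyme, was at 19.6 TPM in replicate 2 and 18.8 TPM in replicate 1. Dnmt3b (chr2:153649450-153687730), the other enzyme of new methylation and one used mainly in the early embryo, was at 0.720 TPM in replicate 2 and 0.760 TPM in replicate 1. The other quantification gave Dnmt3b 1.04 TPM in replicate 2 and 0.772 TPM in replicate 1. Dnmt3b rested on 27 expected counts in each library, and the ranges of the 3 genes do not overlap in either quantification. The level of Dnmt3a was 58.1 ± 4.44 times that of Dnmt3b and 82.4 ± 12.3 times in the other quantification. Against Dnmt1 it was 2.23 ± 0.0147 times as high, and 2.12 ± 0.0892 times in the other quantification.

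Partners of Dnmt1 differed widely in level. Uhrf1, which brings Dnmt1 to newly replicated DNA, stood at 0.310 TPM in replicate 2 and 0.340 TPM in replicate 1. Its relative Uhrf2 stood at 22.1 TPM in replicate 2 and 23.6 TPM in replicate 1. Markers of dividing cells were low apart from Pcna, with Mki67 at 0.180 TPM in replicate 2 and 0.130 TPM in replicate 1. Dnmt3l, a cofactor of Dnmt3a in germ cells, was at 0.240 TPM in replicate 2 and listed at 0 in replicate 1.

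Dnmt3a is annotated with starts at separate promoters, which make proteins of different length. The first group of starts accounted for 74.0% of the gene's TPM in replicate 2 and 80.2% in replicate 1, and for 85.2% of its counts. Its longest form, Dnmt3a-201 (9685 bases, 908 amino acids), held 28.6 ± 3.48% of TPM and 65.7% of counts. Short forms marked as incomplete in the annotation held much of the remaining TPM, with Dnmt3a-204 (1115 bases) at 18.3% in replicate 2 and 23.7% in replicate 1 and Dnmt3a-206 (827 bases) at 17.8 ± 1.05%. The downstream start makes the shorter protein of 689 amino acids known as Dnmt3a2 and accounted for 7.62% of TPM in replicate 2 and 8.64% in replicate 1. The other quantification gave 58.5 ± 8.46% to the first starts and 9.24 ± 0.844% to the downstream start. Windows of both starts are shown because the start used decides which protein is made. They are RefSeq promoter windows of build GRCm38.p6, from 250 bases before to 50 bases after the start, on the plus strand with each CG dinucleotide in capitals. The upstream window shown lies at chr12:3806910-3807209 and holds 47 CG. Its start is that of Dnmt3a-218, a form with 4.28 ± 3.26% of TPM. Another upstream window, at chr12:3806730-3807029, holds 46 CG and is not shown. The downstream window lies at chr12:3891494-3891793 and holds 18.
Dnmt3a upstream start: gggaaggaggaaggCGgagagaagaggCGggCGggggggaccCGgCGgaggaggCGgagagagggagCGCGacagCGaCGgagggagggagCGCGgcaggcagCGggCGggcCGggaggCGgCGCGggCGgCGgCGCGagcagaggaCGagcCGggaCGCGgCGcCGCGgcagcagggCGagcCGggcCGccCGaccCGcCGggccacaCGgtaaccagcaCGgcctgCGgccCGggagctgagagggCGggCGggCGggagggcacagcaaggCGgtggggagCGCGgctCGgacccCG
Dnmt3a downstream start: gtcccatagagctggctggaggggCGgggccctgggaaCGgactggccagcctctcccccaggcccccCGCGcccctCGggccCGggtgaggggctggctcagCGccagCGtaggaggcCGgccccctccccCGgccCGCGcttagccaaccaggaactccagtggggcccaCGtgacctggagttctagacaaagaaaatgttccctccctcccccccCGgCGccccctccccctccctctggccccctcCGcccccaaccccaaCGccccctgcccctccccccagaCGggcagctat

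Dnmt1 also has separate starts. The upstream start, of Dnmt1-202 (1501 amino acids), accounted for 14.9% of the gene's TPM in replicate 2 and 15.4% in replicate 1. The downstream starts, which include Dnmt1-201 with the full protein of 1620 amino acids, accounted for 77.4% in replicate 2 and 80.1% in replicate 1. Dnmt1-201 alone held 69.4 ± 4.07% of TPM, and 46.5 ± 2.12% in the other quantification, where the upstream start had 24.6 ± 4.67%. The windows of the 3 coding forms are shown because they differ in CG content. They are on the minus strand and are printed in the direction of the gene. The upstream window at chr9:20959839-20960138 holds 2 CG. The window at the start of Dnmt1-201, chr9:20952930-20953229, holds 12 CG. The window at chr9:20952574-20952873, which holds 33, is the start of Dnmt1-203 (1501 amino acids), a form with 9.41 ± 2.17% of TPM and 1.99 ± 2.81% in the other quantification.
Dnmt1 upstream start: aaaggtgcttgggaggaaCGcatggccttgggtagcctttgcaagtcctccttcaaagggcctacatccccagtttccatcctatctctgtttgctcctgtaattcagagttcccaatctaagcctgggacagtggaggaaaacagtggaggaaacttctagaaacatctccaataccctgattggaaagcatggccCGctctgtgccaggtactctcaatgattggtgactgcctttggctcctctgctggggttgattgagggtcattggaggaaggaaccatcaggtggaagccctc
Dnmt1-201 start: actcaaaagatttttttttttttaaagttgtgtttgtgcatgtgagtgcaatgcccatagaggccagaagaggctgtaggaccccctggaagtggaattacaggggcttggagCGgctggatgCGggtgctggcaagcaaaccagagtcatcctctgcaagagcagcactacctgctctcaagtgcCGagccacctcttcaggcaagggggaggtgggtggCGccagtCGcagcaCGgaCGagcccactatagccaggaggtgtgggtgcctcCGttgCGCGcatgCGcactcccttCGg
Dnmt1-203 start: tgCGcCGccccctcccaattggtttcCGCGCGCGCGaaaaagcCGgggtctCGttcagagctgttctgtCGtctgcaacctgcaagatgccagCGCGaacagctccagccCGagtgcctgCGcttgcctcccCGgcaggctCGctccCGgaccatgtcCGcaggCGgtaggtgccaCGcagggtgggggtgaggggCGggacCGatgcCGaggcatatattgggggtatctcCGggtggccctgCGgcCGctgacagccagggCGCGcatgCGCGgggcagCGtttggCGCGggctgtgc

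CG-rich starts were common among the members. The RefSeq table matched 39 of the 51 members with 54 promoter windows of 300 bases. The motif counted was CG, which reads the same on both strands and overlaps no other counted motif. It occurred in 98.1% of member windows and in 94.6% of the 32851 windows of the table. The median was 27.5 CG per member window and 7 per window of the table, and 20 or more CG were present in 38 member windows (70.4%) and in 26.5% of all windows. Those windows cover 27025 genes, whether detected here or not. Windows of detected protein-coding genes were not compared, so a trait particular to the members is not shown. The only Hdac8 window holds 6 CG, and forms that begin within 500 bases of its start held 100% of Hdac8 TPM. Another CG-poor start that carried a large share of a member's TPM was that of Hdac9-201, a form of 588 amino acids. This start accounted for 36.2% of Hdac9 TPM in replicate 2 and 37.6% in replicate 1, and its window on the minus strand at chr12:34528840-34529139 holds 3 CG. It is shown as the counterpart of the CG-rich windows above. Hdac9-205 (10.2 ± 0.604% of TPM) and Hdac9-206 (11.2 ± 0.388%) begin more than 500 bases from the Hdac9-201 start and are not in its share. The distal Hdac9 start, whose window holds no CG, accounted for 0.228% of TPM in replicate 2 and 0% in replicate 1. The other quantification gave it 12.6 ± 2.50%.
Hdac9-201 start: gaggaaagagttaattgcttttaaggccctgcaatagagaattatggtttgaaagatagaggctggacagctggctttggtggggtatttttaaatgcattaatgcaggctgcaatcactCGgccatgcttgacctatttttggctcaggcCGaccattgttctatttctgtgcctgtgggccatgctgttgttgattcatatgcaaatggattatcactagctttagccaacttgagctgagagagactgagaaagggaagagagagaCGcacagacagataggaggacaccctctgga

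The erasers followed the order Tet3, Tet2, Tet1. Tet3 (chr6:83362373-83459084) was at 32.9 TPM in replicate 2 and 28.7 TPM in replicate 1, and the other quantification gave 41.9 TPM in replicate 2 and 31.4 TPM in replicate 1. Tet2 was at 21.2 TPM in replicate 2 and 18.3 TPM in replicate 1, with 33.2 TPM in replicate 2 and 25.7 TPM in replicate 1 in the other quantification. Tet1 (chr10:62804570-62908996), which carries a CXXC domain that binds CG-rich DNA, was at 6.37 TPM in replicate 2 and 7.57 TPM in replicate 1, with 9.76 TPM in replicate 2 and 11.2 TPM in replicate 1 in the other quantification. Tet3 and Tet2 were higher and Tet1 lower in replicate 2, and the ranges of the 3 genes do not overlap in the main quantification. In the other, those of Tet3 and Tet2 overlap. Tet3 stood at 4.48 ± 0.973 times Tet1, and at 3.54 ± 1.05 times in the other quantification. Tet2 stood at 2.87 ± 0.636 times Tet1, and at 2.85 ± 0.782 times in the other quantification. The most abundant Tet1 form did not code for protein. Tet1-202, a processed transcript of 1505 bases, made up 39.7% (replicate 2) and 52.9% (replicate 1) of Tet1 TPM but 12.8% of its counts. The full-length Tet1-206 (2039 amino acids) held 21.5 ± 2.59% of TPM and 60.1% of counts. Tet3-202 (1668 amino acids), the leading Tet3 form, held 39.2 ± 0.915% of TPM and 75.0% of counts. Tet2-201 (1912 amino acids) led Tet2 with 40.7 ± 2.44%.

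Within the MBD family, levels ran from Mbd3 to Mbd4. Mbd3, a subunit of the NuRD complex that binds methylated DNA poorly, was at 61.4 TPM in replicate 2 and 66.0 TPM in replicate 1, with 97.7 TPM in replicate 2 and 102 TPM in replicate 1 in the other quantification. Mbd2, the alternative methyl-binding subunit of NuRD, was at 32.2 TPM in replicate 2 and 31.8 TPM in replicate 1. Mbd3 was at 1.99 ± 0.121 times Mbd2, and at 1.93 times in the other quantification. Mbd5 stood at 57.5 TPM in both animals and its relative Mbd6 at 18.6 TPM in replicate 2 and 16.5 TPM in replicate 1. Mbd1, which binds methylated CG, was at 31.1 TPM in replicate 2 and 29.9 TPM in replicate 1. Mbd4, a glycosylase that repairs deaminated CG sites, was at 3.76 TPM in replicate 2 and 3.58 TPM in replicate 1, with 6.66 TPM in replicate 2 and 6.83 TPM in replicate 1 in the other quantification. Of the other NuRD partners, all 7 were at 1 TPM or more, led by the histone-binding Rbbp7 at 67.9 ± 1.00 TPM and Rbbp4 at 56.2 ± 2.62 TPM, with Gatad2a lowest at 14.5 ± 0.467 TPM. Coding forms made up 40.9% of the level of Mbd5 and 84.1% of its counts. Its leading form Mbd5-209, a processed transcript of 713 bases, made up 34.5% (replicate 2) and 37.0% (replicate 1) of its TPM but 7.64% of its counts, and 0 of its bases lie outside the exons of coding forms. Forms with at least 90% of the longest annotated protein, called full-length forms here, held 5.68% of Mbd5 TPM. Mbd5-203 (1498 of 1728 amino acids) lies just under that limit and held 24.8 ± 1.03% of TPM and 50.6% of counts.

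The deacetylases of class I, of which Hdac1, Hdac2 and Hdac3 act in nuclear corepressor complexes, were led by Hdac2. Hdac2 was at 37.0 TPM in replicate 2 and 40.7 TPM in replicate 1, with 68.9 TPM in replicate 2 and 77.4 TPM in replicate 1 in the other quantification. Its close relative Hdac1 was at 13.0 TPM in replicate 2 and 12.4 TPM in replicate 1. Hdac3, the enzyme of the NCoR complex, was at 35.4 TPM in replicate 2 and 34.0 TPM in replicate 1, a range that lies below that of Hdac2. Hdac8, which deacetylates cohesin, was at 7.47 TPM in replicate 2 and 6.52 TPM in replicate 1, with 15.8 TPM in replicate 2 and 15.3 TPM in replicate 1 in the other quantification. Hdac1 stood at 0.328 ± 0.0329 times Hdac2, and at 0.299 times in the other quantification. The leading forms of this class coded for the whole protein: Hdac2-201 held 90.1 ± 1.02% of TPM and Hdac1-201 61.4 ± 5.47%, and the other Hdac1 forms retain introns. The listed genes of the corepressor complexes of Hdac1, Hdac2 and Hdac3 were all present, with Ncor1 at 121 ± 4.47 TPM and Rcor2 lowest at 6.72 ± 0.325 TPM.

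Class IIa enzymes shuttle between nucleus and cytoplasm in response to calcium signals, and Hdac5 was the highest of them. Hdac5 was at 126 TPM in replicate 2 and 127 TPM in replicate 1, with 144 TPM in replicate 2 and 136 TPM in replicate 1 in the other quantification. Hdac4 was at 53.4 TPM in replicate 2 and 46.2 TPM in replicate 1. Hdac9, whose short forms lack the catalytic domain, was at 26.4 TPM in replicate 2 and 26.9 TPM in replicate 1. Hdac7, studied mostly in vessels and lymphocytes, was the lowest at 17.0 TPM in replicate 2 and 13.6 TPM in replicate 1, with 26.1 TPM in replicate 2 and 20.3 TPM in replicate 1 in the other quantification. The ranges of the 4 genes do not overlap in the main quantification. The ratio of Hdac5 to Hdac4 was 2.56 ± 0.272, but 1.49 ± 0.107 in the other quantification. Coding forms made up 28.4% of Hdac5 TPM and 51.5% of its counts, and the nonsense-mediated decay form Hdac5-205 alone held 15.1 ± 0.150% of TPM. Exons of Hdac4 overlap those of Gm26720 on the opposite strand over 22.4% of their bases, and whether counting used strand is not given in the sources used here.

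In classes IIb and IV, Hdac11, the only class IV enzyme, exceeded Hdac6 and Hdac10. Hdac11 was at 77.7 TPM in replicate 2 and 77.4 TPM in replicate 1, with 171 TPM in replicate 2 and 151 TPM in replicate 1 in the other quantification. The tubulin deacetylase Hdac6 was at 22.2 TPM in replicate 2 and 22.5 TPM in replicate 1. The polyamine deacetylase Hdac10 was at 7.63 TPM in replicate 2 and 7.60 TPM in replicate 1, with 12.6 TPM in replicate 2 and 11.5 TPM in replicate 1 in the other quantification. Differences between the animals were small beside those between the genes. Hdac11 stood at 11.1 ± 1.04 times Hdac8 and 10.3 times in the other quantification, and 17.9% of its exonic bases overlap genes on the opposite strand. Hdac10 had the lowest coding share of counts of any member, 26.8%, and its leading form by TPM was the processed transcript Hdac10-208 at 32.0 ± 2.07%. The NAD-dependent sirtuins, which form the remaining deacetylase class, were all 7 at 5.85 TPM or more, with Sirt2 at 55.7 ± 2.77 TPM, Sirt3 at 31.3 ± 0.820 TPM and Sirt1 lowest at 6.01 ± 0.226 TPM. The opposing histone acetyltransferases were all 9 present as well, led by Kat6b at 50.3 ± 1.93 TPM and Kat5 at 43.1 ± 1.05 TPM, with Kat2b lowest at 6.96 ± 0.870 TPM.

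The CHD remodelers had the largest summed level of the 11 families, 562 TPM in replicate 2 and 538 TPM in replicate 1. Chd3, Chd4 and Chd5 are the alternative ATPases of NuRD. Chd3 (chr11:69343273-69369406) was at 179 TPM in replicate 2 and 181 TPM in replicate 1, the highest of all 51 members in the main quantification, and at 225 TPM in replicate 2 and 194 TPM in replicate 1 in the other. Chd5, known as the neuronal ATPase, was at 85.5 TPM in replicate 2 and 78.2 TPM in replicate 1. Chd4 was at 73.2 TPM in replicate 2 and 66.3 TPM in replicate 1, below Chd5 in each animal. Chd3 exceeded Chd4 by 2.59 ± 0.199 times in the main and 1.94 times in the other quantification. Chd5 was at 1.17 ± 0.00855 times Chd4 in the main quantification but 0.892 ± 0.0544 times in the other. The order of their gene levels is therefore not settled. Full-length forms were higher for Chd5, at 65.2 ± 1.53 TPM, than for Chd4, at 52.1 ± 1.31 TPM. In the other quantification they were at 95.3 ± 3.95 TPM for Chd5 and 77.3 ± 3.79 TPM for Chd4.

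The remaining CHD genes apart from Chd9 were lower. Chd8, which is known from autism genetics, was at 50.9 TPM in replicate 2 and 49.96 TPM in replicate 1. Chd6 was at 31.2 TPM in replicate 2 and 27.7 TPM in replicate 1. Chd2, mutated in childhood epilepsy in humans, was at 25.3 TPM in replicate 2 and 23.3 TPM in replicate 1, and its exons share 18.4% of their bases with 1810026B05Rik on the same strand. Chd1, which binds methylated lysine 4 of histone H3, was at 12.6 TPM in replicate 2 and 9.93 TPM in replicate 1. Chd7, mutated in human CHARGE syndrome, was the lowest at 4.60 TPM in replicate 2 and 3.89 TPM in replicate 1, with 7.53 TPM in replicate 2 and 6.05 TPM in replicate 1 in the other quantification. All 5 were higher in replicate 2 than in replicate 1.

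Chd9 (chr8:90828352-91054516) had a level that depended strongly on how its forms are counted. Its gene level was 99.7 TPM in replicate 2 and 98.4 TPM in replicate 1, the fifth highest of the members. The short processed transcript Chd9-206 of 759 bases held 66.3% of that TPM in replicate 2 and 67.1% in replicate 1, and 71.5% in the other quantification. By counts, which are not divided by length, it held 17.3%, and the coding forms held 74.2%. Of its bases, 545 (71.8%) lie outside the exons of the coding forms. Full-length forms of up to 2885 amino acids stood at 14.8 TPM in replicate 2 and 14.7 TPM in replicate 1, which placed Chd9 at rank 28. Most Chd9 TPM, 89.7% in replicate 2 and 90.3% in replicate 1, belonged to forms that begin near the upstream start, Chd9-206 among them, and 0.838 ± 0.0221% to forms of the downstream start. Both windows, on the plus strand, are shown because forms of the first hold most of the TPM. The upstream window at chr8:90828585-90828884 holds 19 CG and the downstream window at chr8:90931999-90932298 holds 1.
Chd9 upstream start: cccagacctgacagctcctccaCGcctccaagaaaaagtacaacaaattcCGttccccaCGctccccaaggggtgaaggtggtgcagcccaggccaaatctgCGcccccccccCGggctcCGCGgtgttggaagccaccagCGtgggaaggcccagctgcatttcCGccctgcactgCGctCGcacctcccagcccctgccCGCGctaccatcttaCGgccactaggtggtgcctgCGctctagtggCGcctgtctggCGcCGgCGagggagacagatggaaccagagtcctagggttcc
Chd9 downstream start: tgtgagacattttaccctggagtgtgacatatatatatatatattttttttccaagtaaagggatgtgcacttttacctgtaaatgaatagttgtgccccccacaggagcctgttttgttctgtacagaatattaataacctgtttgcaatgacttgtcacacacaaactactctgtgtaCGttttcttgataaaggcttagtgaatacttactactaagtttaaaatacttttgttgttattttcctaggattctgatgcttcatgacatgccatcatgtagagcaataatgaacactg

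The BAF and PBAF subunits came next in summed level, 449 TPM in replicate 2 and 455 TPM in replicate 1. Smarca2, which encodes the ATPase BRM, was at 131 TPM in replicate 2 and 123 TPM in replicate 1, with 247 TPM in replicate 2 and 232 TPM in replicate 1 in the other quantification. Smarca4, which encodes the alternative ATPase BRG1, was at 51.7 TPM in replicate 2 and 54.0 TPM in replicate 1. By gene level Smarca2 stood at 2.40 ± 0.185 times Smarca4, and at 3.09 times in the other quantification. Full-length forms were close, at 45.2 ± 0.361 TPM for Smarca2 and 47.5 ± 1.32 TPM for Smarca4. In the other quantification they were at 65.6 ± 5.29 TPM for Smarca2 and 64.4 ± 1.29 TPM for Smarca4. The paired scaffold subunits were also unequal by gene level. Smarcc2 was at 112 TPM in replicate 2 and 119 TPM in replicate 1 and Smarcc1 at 30.3 TPM in replicate 2 and 34.3 TPM in replicate 1. The ratio was 3.58 ± 0.177 in the main and 4.40 in the other quantification.

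The DNA-binding subunits of the canonical complex were close together. Arid1a was at 40.2 TPM in replicate 2 and 39.7 TPM in replicate 1, and Arid1b at 36.0 TPM in replicate 2 and 34.1 TPM in replicate 1, a ratio of 1.14 ± 0.0333 that was also 1.14 in the other quantification. Smarcb1, common to both complexes, was at 34.5 TPM in replicate 2 and 35.2 TPM in replicate 1. Arid2, which marks PBAF, was the lowest at 13.4 TPM in replicate 2 and 16.2 TPM in replicate 1, with 20.1 TPM in replicate 2 and 22.7 TPM in replicate 1 in the other quantification.

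BAF complexes of neurons and of dividing progenitors differ in a few exchangeable subunits, and 3 of the 4 neuronal ones were the higher of their pair. Actl6b, the neuronal actin-related subunit, was at 45.4 TPM in replicate 2 and 52.0 TPM in replicate 1, and the progenitor subunit Actl6a at 7.36 TPM in replicate 2 and 9.52 TPM in replicate 1, a ratio of 5.81 ± 0.503, and of 8.24 ± 0.504 in the other quantification. Dpf1 was at 1.21 ± 0.00802 times Dpf2, and at 1.87 ± 0.203 times in the other quantification. Ss18l1 was at 1.73 ± 0.0999 times Ss18 and at 1.64 ± 0.248 times in the other. Dpf3 was at 0.0730 ± 0.00137 times Dpf2 and at 0.114 ± 0.00968 times in the other. All 4 neuronal and all 4 progenitor subunits were above 1 TPM, with Dpf1 at 49.2 ± 1.80 TPM, Dpf2 at 40.6 ± 1.75 TPM and Phf10 at 26.6 ± 0.170 TPM. Of 10 further subunits, all above 1 TPM, Smarcd1 at 70.4 ± 2.60 TPM and Smarcd3 at 41.1 ± 1.65 TPM were highest and Smarcd2 lowest at 7.28 ± 0.0495 TPM. Among 10 other remodelers, Atrx at 76.2 ± 3.68 TPM and Srcap at 51.7 ± 3.10 TPM led, and Hells was lowest at 1.74 ± 0.488 TPM.

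In the PRC2 core, the catalytic subunit Ezh1 exceeded its alternative Ezh2, which is known mainly from dividing cells. Ezh1 (chr11:101191115-101226463) was at 25.1 TPM in replicate 2 and 24.3 TPM in replicate 1, with 46.8 TPM in replicate 2 and 43.1 TPM in replicate 1 in the other quantification. Ezh2 (chr6:47530139-47595341) was at 4.98 TPM in replicate 2 and 5.60 TPM in replicate 1, with 10.9 TPM in replicate 2 and 14.9 TPM in replicate 1 in the other quantification. The ratio was 4.69 ± 0.504 in the main and 3.59 ± 0.984 in the other quantification. Eed, which binds the mark that PRC2 places, was at 16.9 TPM in both animals. Suz12, the scaffold, was at 14.8 TPM in replicate 2 and 18.1 TPM in replicate 1. By gene level Eed stood at 1.15 times Suz12 in replicate 2 and at 0.930 times in replicate 1. The other quantification gave 0.749 times, so the order of the gene levels is not settled. Retained-intron forms held 55.9 ± 0.932% of Eed TPM. Full-length forms were lower for Eed, at 4.04 ± 0.573 TPM, than for Suz12, at 14.9 ± 1.22 TPM. In the other quantification they were at 9.89 ± 0.446 TPM for Eed and 22.2 ± 1.32 TPM for Suz12. Which Ezh1 form led depended on the quantification: Ezh1-203 (750 amino acids) held 52.8 ± 1.34% of TPM in the main and 0.000823% in the other, where Ezh1-202 (747 amino acids) held 51.1 ± 2.75%. Of 6 accessory PRC2 genes measured, 5 were above 1 TPM, with Epop at 46.6 ± 0.849 TPM, Aebp2 at 30.6 ± 1.32 TPM and Phf19 lowest at 0.575 ± 0.00707 TPM. All 16 genes of PRC1, which binds the mark that PRC2 places, were above 1 TPM. Cbx6 led them at 166 ± 6.27 TPM, followed by Phc2 at 37.9 ± 0.651 TPM, and Cbx2 was lowest at 1.38 ± 0.198 TPM.

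The KMT2 genes lay within a narrow span of levels. Kmt2e, the most divergent of the family, was at 45.2 TPM in replicate 2 and 41.9 TPM in replicate 1, with 77.7 TPM in replicate 2 and 73.5 TPM in replicate 1 in the other quantification. Kmt2d was at 44.5 TPM in replicate 2 and 39.7 TPM in replicate 1 and its relative Kmt2c at 30.2 TPM in replicate 2 and 29.5 TPM in replicate 1. Both place the monomethyl mark of enhancers. Kmt2a, known as MLL, was at 36.0 TPM in replicate 2 and 28.3 TPM in replicate 1. Its relative Kmt2b was the lowest at 23.6 TPM in replicate 2 and 20.2 TPM in replicate 1, with 36.6 TPM in replicate 2 and 27.3 TPM in replicate 1 in the other quantification. All 5 were higher in replicate 2 than in replicate 1. Kmt2a was at 1.46 times Kmt2b and Kmt2c at 0.710 times Kmt2d, and the other quantification gave 1.22 and 0.565 times. Kmt2e-201 held 49.4 ± 0.194% of Kmt2e TPM, and Kmt2e-207, a nonsense-mediated decay form of 2061 bases, held 25.7 ± 0.143%. Exons of Kmt2e overlap those of Srpk2 on the opposite strand over 9.31% of their bases. The 8 COMPASS genes listed beside the members, which include the methyltransferase genes Setd1a and Setd1b, were all present. Men1 at 30.0 ± 2.06 TPM and Rbbp5 at 26.6 ± 1.41 TPM led them, and the scaffold Wdr5 was lowest at 11.2 ± 0.757 TPM.

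Of the H3K9 methyltransferases, which work as a pair, Ehmt2 (G9a) was at 77.3 TPM in replicate 2 and 74.0 TPM in replicate 1, with 114 TPM in replicate 2 and 104 TPM in replicate 1 in the other quantification. Ehmt1 (GLP) was at 23.4 TPM in replicate 2 and 26.1 TPM in replicate 1, with 40.2 TPM in replicate 2 and 32.9 TPM in replicate 1 in the other quantification. The ratio was 3.07 ± 0.323 in the main and 2.99 in the other quantification. Among 8 related genes of H3K9 methylation, all above 1 TPM, the corepressor Trim28 at 93.6 ± 5.32 TPM and the heterochromatin protein gene Cbx5 at 80.3 ± 3.42 TPM led, and the methyltransferase gene Suv39h2 was lowest at 1.58 ± 0.0990 TPM. Of 9 partners of DNA methylation, 7 were above 1 TPM, led by the methyl-binding factor gene Zbtb38 at 29.4 ± 1.43 TPM and Uhrf2.

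Over all 18 pairs of related members compared by gene level, 16 lay on the same side of 1 in both animals and in both quantifications. The exceptions were Chd5 over Chd4 and Eed over Suz12.

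**Figure D2:**
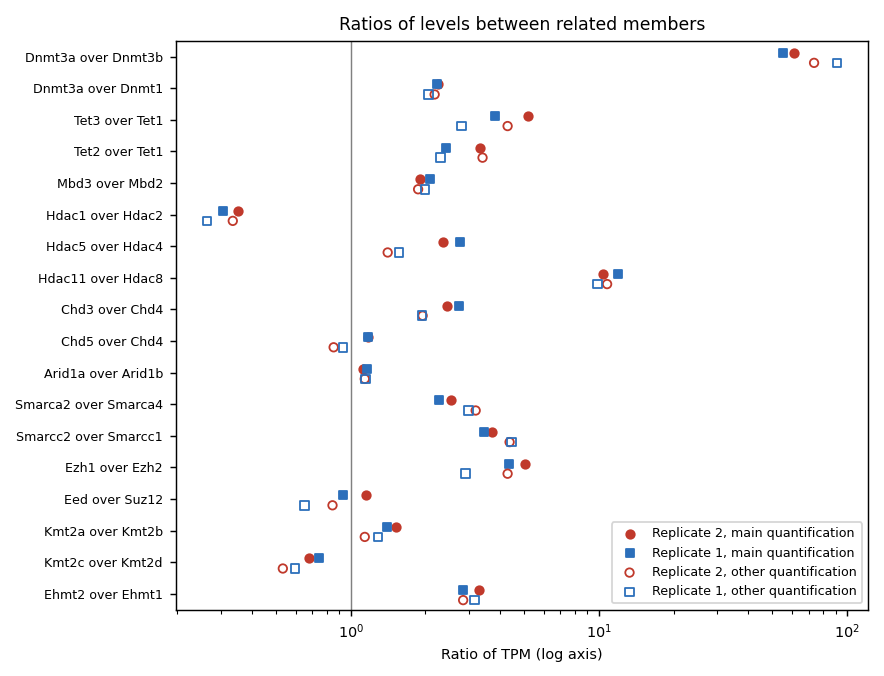
Ratio of TPM between 18 pairs of related members on a log axis, for replicate 2 (circles) and replicate 1 (squares), in the main (filled) and other (open) quantification. The vertical line marks equal levels, and 16 pairs lie wholly on 1 side of it.

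Each gene level sums annotated forms that differ in length and coding potential. The median member had 79.7% of its TPM in protein-coding forms, against 89.2% for 12910 detected nuclear protein-coding genes and 80.5% for the 7284 of these with 5 or more annotated transcripts. The leading form held less than 50% of TPM in 28 members (54.9%), against 28.8% and 46.2% in those backgrounds. The leading form did not code for protein in 7 members (13.7%), against 7.24% and 9.29%. The other quantification had 4 such members (7.84%), against 9.04% and 11.8%, so the members lay above both backgrounds in the main quantification and below both in the other. The 7 were Chd9, Mbd5, Tet1, Hdac10, Hdac7, Dnmt3b and Mbd6. By share of counts, the leading form coded for protein in 50 of 51, the exception being Hdac7. Hdac7-211, a retained-intron form of 1572 bases, held 26.3 ± 0.738% of Hdac7 TPM. Mbd6-204, a decay form of 717 bases, held 24.1 ± 7.30% in the main and 1.86% in the other quantification, and Dnmt3b-212 held 34.3 ± 26.2% on very few counts.

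By TPM, many members had no dominant form, and some of their leading forms held most of the counts. The leading forms of Mbd1 (Mbd1-204, 36.5 ± 0.597% of TPM), Mbd2 (Mbd2-201, 48.6 ± 0.550%), Mbd3 (Mbd3-206, 40.0 ± 1.02%), Hdac4 (Hdac4-202, 39.9 ± 0.971%), Hdac5 (Hdac5-204, 19.0 ± 3.46%) and Hdac6 (Hdac6-202, 37.9 ± 3.70%) were each below 50% of TPM. Their shares of counts were 53.9%, 80.1%, 33.9%, 82.3%, 34.5% and 48.6% in that order. Mbd3-206 encodes 184 amino acids and is marked incomplete, and the other quantification put Mbd3-204 (253 amino acids) first at 38.8 ± 2.49%. Leading forms were also below 50% of TPM for the remodelers Chd2 (Chd2-203, 46.2 ± 1.44%), Chd4 (Chd4-202, 30.3 ± 0.396%), Chd5 (Chd5-202, 36.9 ± 0.365%), Chd7 (Chd7-202, 41.9 ± 1.79%), Chd8 (Chd8-212, 36.4 ± 3.68%) and Smarca2 (Smarca2-201, 26.8 ± 4.19%). By counts these remodeler forms held 81.9%, 38.3%, 46.8%, 76.8%, 65.7% and 42.4% in that order. The same held by TPM for the histone methylation genes Ezh2 (Ezh2-202, 25.1 ± 0.445%), Eed (Eed-201, 23.9 ± 3.51%), Kmt2c (Kmt2c-201, 34.9 ± 1.06%), Ehmt1 (Ehmt1-213, 18.4 ± 3.77%) and Ehmt2 (Ehmt2-201, 48.4 ± 4.61%). By counts these held 31.7%, 53.0%, 61.5%, 7.47% and 61.4% in that order. The same form led in both animals in 46 members, with Dnmt3b, Mbd6, Chd4, Eed and Ehmt1 as exceptions. The same form led in both quantifications in 40 members (78.4%), against 78.3% of detected genes and 69.8% of those with 5 or more transcripts. The 11 that differed were Dnmt3b, Mbd3, Mbd6, Hdac6, Hdac7, Hdac10, Chd4, Smarca2, Ezh1, Ezh2 and Ehmt1. In the other quantification Smarca2-241 led Smarca2 with 28.3%, Hdac6-201 led Hdac6 with 26.4%, Chd4-201 led Chd4 with 29.0%, Ezh2-208 led Ezh2 with 20.2% and Ehmt1-211 led Ehmt1 with 19.8%.

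**Figure D3:**
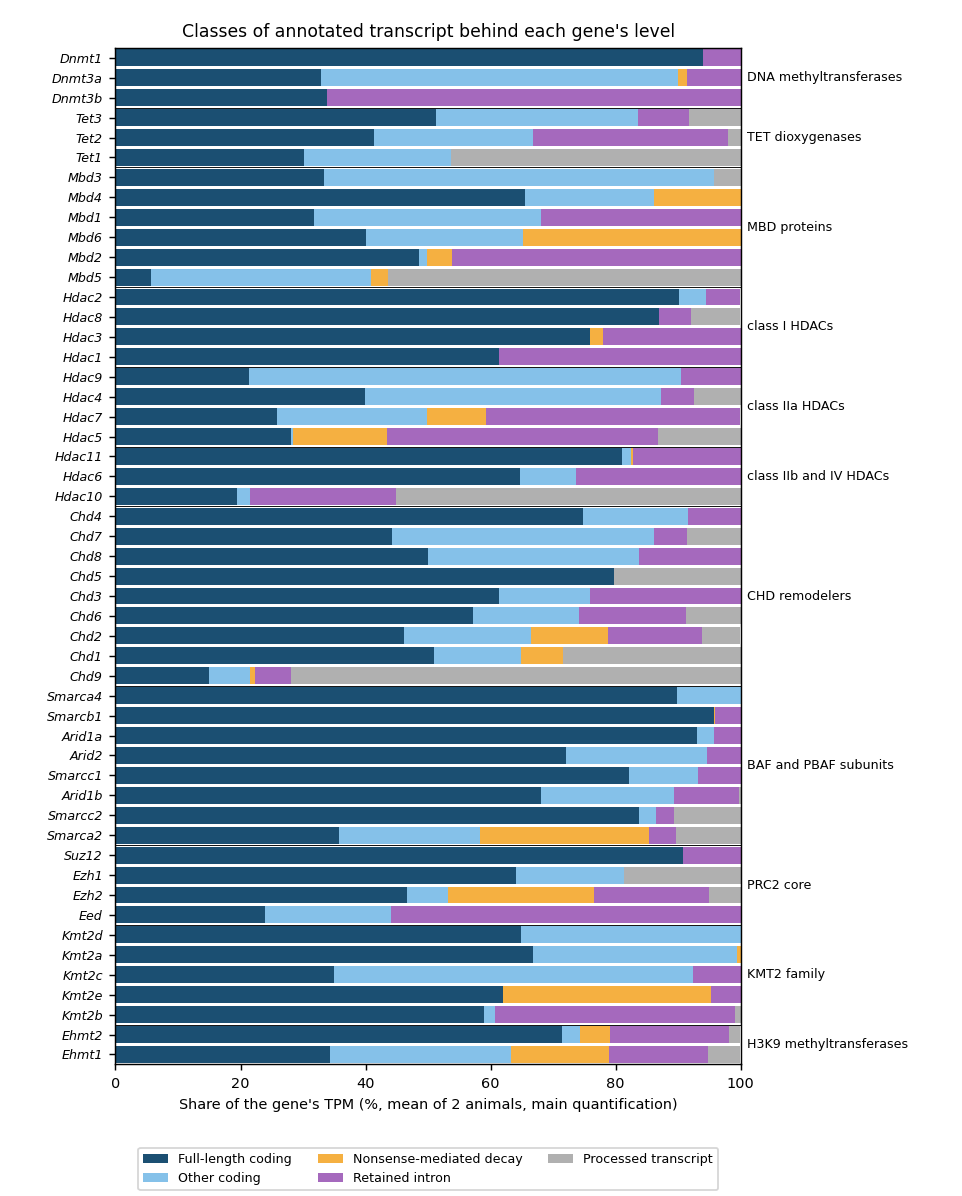
Share of each member's TPM by class of annotated transcript, as the mean of both animals in the main quantification, in percent on a linear axis from 0. Full-length coding forms encode at least 90% of the longest annotated protein. Chd9, Mbd5, Hdac10 and Tet1 have large shares in processed transcripts, and Dnmt3b, Hdac5, Mbd2 and Eed in retained-intron forms.

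Ranking by full-length forms changes which regulators stand highest. Full-length forms held 57.2% of TPM and 82.3% of counts in the median member. By their level, Chd3 stayed first at 110.5 TPM, followed by Smarcc2 at 96.6 TPM, Chd5 at 65.2 TPM, Hdac11 at 62.8 TPM, Ehmt2 at 54.0 TPM and Chd4 at 52.1 TPM. There were 5 members that lost 10 or more ranks against the gene level, namely Chd9, Mbd5, Dnmt3a, Mbd3 and Hdac9. Mbd5 moved from rank 11 to rank 45, at 3.36 TPM in replicate 2 and 3.17 TPM in replicate 1. The places of Mbd5 and Mbd3 rest on the limit of 90%. With a limit of 80%, which takes in Mbd5-203, Mbd5 stood at rank 23 with 18.0 TPM in replicate 2 and 17.0 TPM in replicate 1. Mbd3 then kept its rank of 10, and Mbd5, Dnmt3a, Hdac9 and Chd9 still lost 10 or more ranks. With the limit of 90%, Dnmt3a moved from rank 16 to rank 30, and Hdac5 from rank 3 to rank 10 at 35.5 TPM. Dnmt1 and Suz12 gained 10 or more ranks. Full-length forms of Dnmt1, at 18.1 TPM in replicate 2 and 17.9 TPM in replicate 1, then stood above those of Dnmt3a at 14.1 TPM. Both limits take in the Dnmt1 forms of 1501 amino acids but leave out Dnmt3a2. The start of Dnmt3a2 held 8.13 ± 0.720% of Dnmt3a TPM, and 9.24 ± 0.844% in the other quantification. Of its forms, Dnmt3a-203 was at 3.36 TPM in replicate 2 and 3.40 TPM in replicate 1, and Dnmt3a-205 at 0 TPM in replicate 2 and 0.210 TPM in replicate 1. Full-length forms in the other quantification were at 26.5 TPM for Dnmt1 and 23.7 TPM for Dnmt3a. The order of Dnmt1 above Dnmt3a therefore holds for these limits only, and the order with Dnmt3a2 counted was not tested. In the other quantification Chd9 moved from rank 3 to rank 28 and Mbd5 from rank 11 to rank 47.

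**Figure D4:**
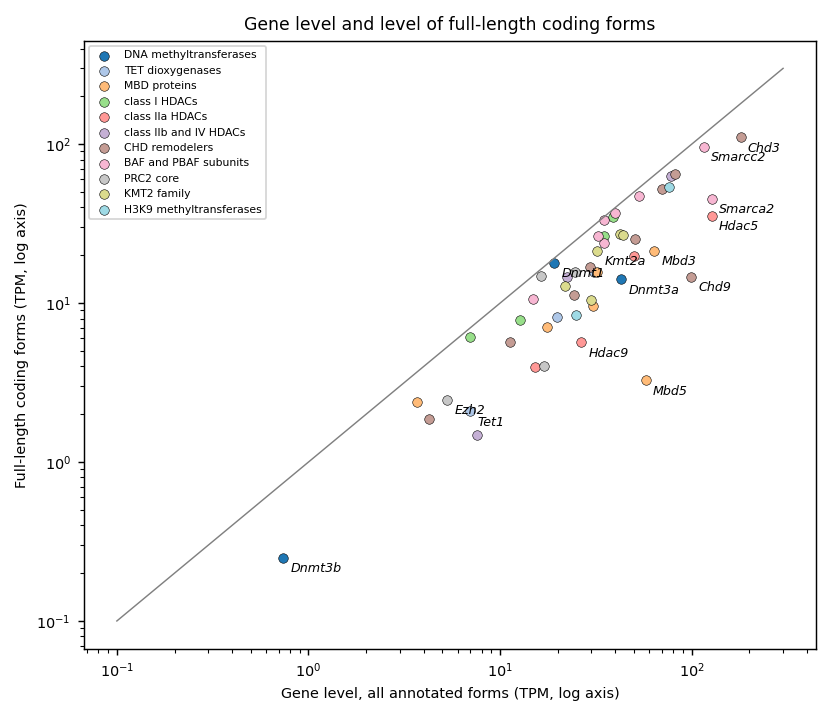
Mean level of full-length coding forms against mean gene level for each member, both in TPM on log axes, with 1 colour per family. Points on the line have all their TPM in full-length forms, and Mbd5 (3.26 of 57.5 TPM) and Chd9 (14.7 of 99.0 TPM) lie far below it.

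Between the animals, members differed by little. Ratios are log2 values of replicate 2 over replicate 1, from CPM (counts per 1000000 counts of the library) with TMM scaling, with a 95% exact binomial interval that covers counting error only. Since each side is a single animal, the ratios carry no p-value and were not checked by replication. No member differed 2-fold, where 1.80% of 18490 genes did and 0.226% of genes with a mean count of 100 or more (2.27% of all genes in the other quantification). The ratios ran between -0.18 and 0.34 with a median of 0.03, and the median of all genes was 0.00. Beyond counting error, 23 members (45.1%) differed, 16 higher and 7 lower in replicate 2. The background is 22.8% of all genes, 10.6% higher and 12.2% lower, and, of genes with a mean count of 100 or more, 27.8%, with 11.8% higher and 16.0% lower. Counts are high for most members, up to 19081, which narrows their intervals, and the median absolute log2 ratio was 0.06 for members against 0.08 for genes with a mean count of 100 or more. In the other quantification 21 members (41.2%, background 25.4%) differed, 11 higher and 10 lower, and 17 differed in both quantifications with the same sign.

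Among the members higher in replicate 2, Hdac7 had the largest ratio. Hdac7 had 952 counts in replicate 2 and 766 in replicate 1, a log2 ratio of 0.34 (0.20 to 0.48), and 0.35 in the other quantification. Tet3 had 4069 counts in replicate 2 and 3450 in replicate 1, a log2 ratio of 0.27 (0.20 to 0.33). Kmt2a had 8184 counts in replicate 2 and 7227 in replicate 1, a log2 ratio of 0.21 (0.16 to 0.25). Kmt2d had 12551 counts in replicate 2 and 11145 in replicate 1, a log2 ratio of 0.20 (0.16 to 0.24). Tet2 was at 0.17, Mbd6 at 0.17, Kmt2b at 0.15, Hdac4 at 0.13 and Chd1 at 0.12. All 5 KMT2 genes were higher beyond counting error in the main quantification, 3 of them also in the other. Under TMM scaling the lower members were led by Suz12, with 1286 counts in replicate 2 and 1486 in replicate 1, a log2 ratio of -0.18 (-0.29 to -0.07). Tet1 had 714 counts in replicate 2 and 817 in replicate 1, a log2 ratio of -0.17 (-0.31 to -0.02), and Hdac2 was at -0.13. Scaled by spike-in RNAs instead, the median of all genes moved to 0.32 and all 17 members with ratios below 0 had ratios above 0, the 7 lower beyond counting error among them. With that scaling, 50 members and 66.6% of all genes differed beyond counting error (65.8% higher and 0.811% lower).

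**Figure D5:**
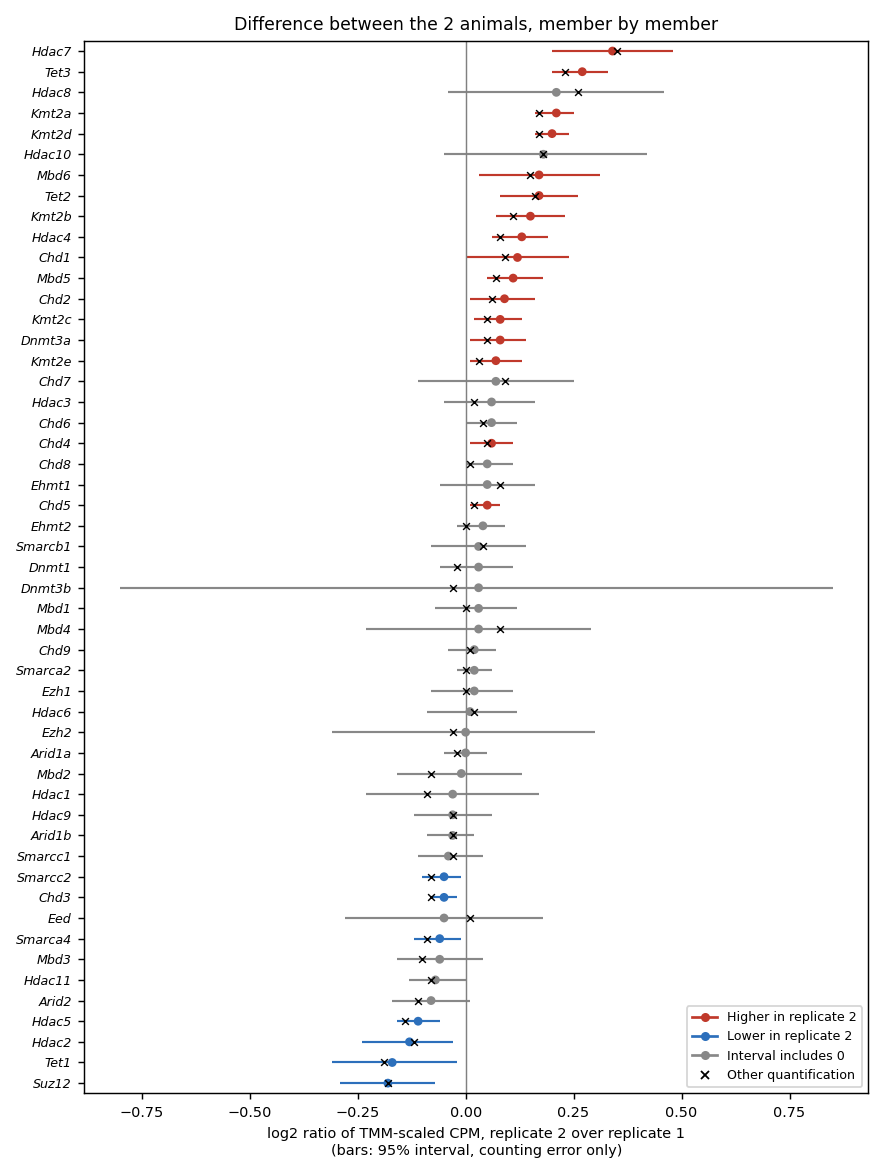
Log2 ratio of TMM-scaled CPM, replicate 2 over replicate 1, for each member, with 95% intervals for counting error as bars and the ratio in the other quantification as crosses. Coloured points are the 16 members higher and 7 members lower in replicate 2 beyond counting error, and grey points have intervals that include 0.

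These differences moved with transcript length. Of all genes with a mean count of 100 or more, 43.1% of the 538 whose transcripts averaged 8000 bases or longer were higher in replicate 2 beyond counting error and 7.62% lower, with a median log2 ratio of 0.05. Of the 842 genes under 1000 bases, 8.43% were higher and 25.3% lower, with a median of -0.07. Among the members, 7 of 13 at 8000 bases or longer and 6 of 9 between 6000 and 8000 bases were higher, against 3 of 28 shorter ones tested, of which 5 were lower. Of all genes, 22.6% between 6000 and 8000 bases were higher, and between 5.79% and 13.5% in the classes from 1000 to 6000 bases. The part of length in the ratios of the KMT2 and TET genes was not tested. Markers differed too. All 7 striatal, all 5 mature oligodendrocyte, 4 of 5 astrocyte and 4 of 6 inhibitory neuron markers were lower in replicate 2 beyond counting error, and both choroid plexus markers tested were higher. Astrocyte markers summed to 660.3 TPM in replicate 2 and 691 TPM in replicate 1, and inhibitory neuron markers to 512 TPM in replicate 2 and 553 TPM in replicate 1, and their part in the ratios was not tested.

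The other genes of these pathways differed about as often as the whole table. Of 105 partner genes compared, 15 were higher and 9 lower in replicate 2 beyond counting error (22.9%), none by 2-fold, with a median log2 ratio of 0.02. The background is 22.8% of all genes, 10.6% higher and 12.2% lower. Of genes with a mean count of 100 or more it is 27.8%, with 11.8% higher and 16.0% lower. More partners were higher than lower, while both backgrounds had more lower than higher. PRC1 had 6 higher and 2 lower of 16, and COMPASS 3 higher and 0 lower of 8. Neuronal BAF subunits had 1 higher and 1 lower of 4, other BAF subunits 0 higher and 2 lower of 10, and other remodelers 2 higher and 1 lower of 10. PRC2 accessory genes, HDAC corepressors and histone acetyltransferases had 1 higher and 0 lower each. NuRD partners, DNA methylation partners and sirtuins had 0 higher and 1 lower each, and the H3K9 partners and progenitor BAF subunits had 0 in either direction. Dpf1 was higher at 0.20 and Actl6b lower at -0.15, so neuronal BAF subunits did not move together.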

How the data were processed

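Total RNA was sequenced from 2 tissue samples in 1 group. The authors' deposited gene and transcript tables give expected counts and TPM on build mm10 with GENCODE M21, as the file headers and a deposited description state, with TPM summing to 1000000 over all rows. A second deposited transcript table, the other quantification, gives the authors' estimated counts and TPM from reads of 1 sequence file. The deposited posterior SD of each count was at most 2.86% of the count for the members. The programs used are not given in these sources, nor is whether the second table used all reads.

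Expected counts were rounded. The 26248 rows that name no gene held 2.5e-05% of counts in replicate 2 and 1.8e-05% in replicate 1, and library sizes exclude them and the spike-ins. Genes averaging 10 or more counts were compared by TMM-scaled CPM (edgeR 4.0.16, R 4.3.3; prior count 2) and an exact Clopper-Pearson interval at 95%. The interval was tested on data simulated with counting error alone, which cannot show how it behaves on these libraries. Over genes averaging 10 or more counts, the spread between the libraries beyond counting error was 0.0905 in log2 units. Intervals cover counting error only. Form lengths come from the GENCODE annotation. All members are named, with full values for the highest and lowest of each family and for set pairs, and the 12 largest ratios among members whose interval excluded 0 and whose sign was the same in the other quantification. Members, lists and alternatives were chosen with earlier results of these data known, and the full-length limit of 90%, a window of 500 bases for starts, the length classes, shares of counts and a limit of 80% after seeing these tables. DESeq2 1.42.0 size factors, spike-in scaling, other priors, pseudocounts and count minimums, each single animal and the other quantification were tried. A partner gene that the naming rule takes is not reported here.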

Additional observations from a re-analysis of the deposited data

How the results depend on the processing

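The summed level of the members was 2080.3 TPM, and 3250.1 TPM in the other quantification, 4516 TPM when rescaled to nuclear protein-coding genes and between 2054 and 2107 TPM with either animal left out. With spike-in scaling, 50 members differed between the animals beyond counting error in place of 23 (66.6% of all genes), and the median log2 ratio was 0.35 in place of 0.03, where all genes had 0.32. The same scaling put all 17 members with a ratio below 0 above it, among them the 7 that were lower beyond counting error, Tet1 (0.16), Hdac2 (0.19), Hdac5 (0.21), Chd3 (0.28), Smarca4 (0.26), Smarcc2 (0.27) and Suz12 (0.14). Which scaling matches the tissue was not tested. The count of 23 was 21 with DESeq2 size factors and 21 in the other quantification, where 41 log2 ratios kept their side of the interval, 6 no longer excluded 0 and 4 newly did, and 31 members in place of 34 lay above 0. Detection stayed at 50 members and leading coding forms at 44 members without either animal, while shares of counts gave 50 and the other quantification 47 in place of 44 leading coding forms. A full-length limit of 80%, chosen after seeing the data, gave 17.5 TPM in place of 3.26 TPM for Mbd5 and 35.5 TPM in place of 21.3 TPM for Mbd3. Low depth limits Dnmt3b, with 27 counts in each library. No paired analysis was possible because there is 1 group of 2 animals.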
